A study of Mus musculus with 35 samples.

Results

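The genes described here are 10 genes of fatty acid oxidation: Cpt1a, Cpt1b, Cpt2, Acadm, Acadl, Acadvl, Hadha, Hadhb, Ppara and Ppargc1a. They were chosen by name as a pathway list and not by their values, and all 10 were found among the 54752 genes of each library by Ensembl identifier and symbol. Fatty acid oxidation breaks long-chain fatty acids down in the mitochondria. Carnitine palmitoyltransferases attach the acyl chain to carnitine and later release it, so that it can cross the mitochondrial membranes. Acyl-CoA dehydrogenases open each round of shortening, and the trifunctional protein completes the round for long chains. The nuclear receptor PPARα and the coactivator PGC-1α drive transcription of many of these enzymes, and the switch between oxidative and glycolytic metabolism is a known feature of reprogramming to pluripotency.

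The study infected mouse embryonic fibroblasts with retroviruses for the transcription factors Jdp2, Glis1, Esrrb and Sall4, a set named JEGS after its factors, or for 3 of the 4, and measured RNA by sequencing. The fibroblasts came from E13.5 embryos of a cross of male Oct4-GFP mice, on a CBA/CaJ × C57BL/6J background, with females of a 129 substrain, and were at passage 2. In every group the cells were infected for 48 hours and then moved to iCD3 medium, an induction medium, with a Rock inhibitor. The arms without Esrrb, without Glis1, without Jdp2 and without Sall4 have 8 libraries each, 1 for each day from day 0 to day 7. JEGS, with all 4 factors, has 3 libraries, from days 2, 4 and 6. The cells are an infected bulk population in which the virus drives the factors, and counts do not separate viral from endogenous factor transcripts.

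The libraries were shallow, with 1266379 to 3608456 expected counts and a median of 1973102, and 1 count was worth 0.277 to 0.79 CPM (counts scaled to a library size of 1e+06). Depth differed between arms: it was 1377656 to 1651712 counts without Esrrb, 1672386 to 2622470 without Glis1, 1865680 to 3333579 without Jdp2, 1939226 to 3608456 without Sall4 and 1266379 to 1682386 in JEGS. No day of any arm was measured more than once, so a p-value reflects how far single libraries scatter, not cultures. The JEGS libraries carry a repeat mark in their names that the leave-out libraries lack, and 2 library kits are named without being assigned. For JEGS, and also between the leave-out arms, a batch and the missing factor therefore cannot be told apart. Fragment length was 201.6 to 205.7 bases without Esrrb, 202.2 to 213.3 without Glis1 and 206.7 to 210.4 without Jdp2. It was 207.8 to 212.7 bases without Sall4 and 199.6 to 202.9 in JEGS. Each left-out factor was low where the sample name says so: Esrrb reached at most 57.9 CPM without Esrrb, Glis1 4.43 CPM without Glis1, Jdp2 45.4 CPM without Jdp2 and Sall4 11.2 CPM without Sall4. All 10 fibroblast markers were detected, and their summed level was 2762 to 29550 CPM before scaling. In bulk RNA, fewer cells of a type and less RNA per cell cannot be told apart.

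The genes lie on 7 chromosomes, and a pair of them are neighbours (GRCm38, GENCODE M21). Hadha (chr5:30118304-30155162, minus strand) and Hadhb (chr5:30155248-30184593, plus strand), which encode the α and β subunits of the trifunctional protein, face away from each other with 85 bases between the gene bodies. Their RefSeq promoter windows, each from 250 bases before to 50 bases after the start, overlap by 228 bases. The Hadhb window is printed because this pair had the highest correlation among the members over the leave-out libraries when arms were not centred. It is chr5:30155003-30155302 on the plus strand of GRCm38.p6, and capitals mark the bases that also lie in the Hadha window, where they are read from the other strand:
Hadhb: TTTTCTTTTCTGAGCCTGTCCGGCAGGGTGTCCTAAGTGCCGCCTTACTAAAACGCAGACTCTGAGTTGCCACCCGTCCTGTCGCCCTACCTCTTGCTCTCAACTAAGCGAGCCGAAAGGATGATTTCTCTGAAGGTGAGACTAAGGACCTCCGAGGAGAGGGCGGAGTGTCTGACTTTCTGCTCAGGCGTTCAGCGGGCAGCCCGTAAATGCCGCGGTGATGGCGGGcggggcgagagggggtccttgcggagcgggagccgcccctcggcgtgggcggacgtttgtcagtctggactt

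Esrrb and PPARα belong to the nuclear receptors, whose binding sites are built on the letters AGGTCA. The letters AGGTCA, searched on both strands, were found in 3 of the 9 member windows in the RefSeq table and in 16.3% of all 32851 windows. The longer TNAAGGTCA, the form bound by estrogen-related receptors, was in 0 of 9 member windows and 1.28% of all windows. The direct repeat bound by PPAR with RXR, AGGTCA written again after 1 free base, was in 0 of 9 and 0.0396%, and both longer forms contain the short one. The letters TGANTCA, the AP-1 site to which Jdp2-type proteins bind, was in 1 of 9 windows, that of Acadvl, and in 7.81% of all windows. Cpt1b was not matched in that table. The 3 windows with AGGTCA are printed to show where it lies, with the match in capitals as it reads on the gene's own strand (TGACCT is AGGTCA on the opposite strand). They are chr19:3323051-3323350 (plus strand), chr3:153944594-153944893 (minus strand) and chr11:70015379-70015678 (minus strand):
Cpt1a: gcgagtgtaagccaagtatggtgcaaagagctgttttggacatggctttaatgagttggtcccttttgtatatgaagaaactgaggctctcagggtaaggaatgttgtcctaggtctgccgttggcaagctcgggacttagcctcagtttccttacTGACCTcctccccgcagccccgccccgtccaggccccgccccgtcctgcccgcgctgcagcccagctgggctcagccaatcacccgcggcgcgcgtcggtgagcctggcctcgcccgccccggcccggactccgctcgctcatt
Acadm: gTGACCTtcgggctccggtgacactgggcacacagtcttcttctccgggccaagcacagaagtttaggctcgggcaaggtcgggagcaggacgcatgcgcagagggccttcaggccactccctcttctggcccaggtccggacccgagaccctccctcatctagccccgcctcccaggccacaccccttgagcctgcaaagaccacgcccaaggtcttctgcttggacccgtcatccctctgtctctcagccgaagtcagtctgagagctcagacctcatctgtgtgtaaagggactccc
Acadvl: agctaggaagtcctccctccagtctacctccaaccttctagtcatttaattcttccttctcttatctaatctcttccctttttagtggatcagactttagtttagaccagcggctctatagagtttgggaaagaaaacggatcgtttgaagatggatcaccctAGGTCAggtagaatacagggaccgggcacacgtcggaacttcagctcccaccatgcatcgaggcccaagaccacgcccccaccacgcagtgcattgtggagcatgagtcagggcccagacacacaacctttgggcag
The matches begin at −94 in Cpt1a, −249 in Acadm and −87 in Acadvl, counted from the start. A match describes the letters in a window, and binding was not measured.

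Per transcript length, in TPM (transcripts scaled to a sum of 1e+06), the enzymes of the cycle stood far above the regulators. Hadha had a median of 100.3 TPM over the 35 libraries, Hadhb 89.8, Acadm 84.9, Acadvl 72.0, Acadl 70.7 and Cpt1a 50.5 TPM. Cpt2 stood lower, at a median of 20.96 TPM, and Cpt1b at 3.81 TPM. The regulators Ppargc1a and Ppara had medians of 0.86 and 0.53 TPM. Ppara was listed at 0 counts in 10 of the 35 libraries, Ppargc1a in 5 and Cpt1b in 3, where a floor of 3 counts is 0.831 to 2.37 CPM. TPM compares genes here, but within a gene the estimated transcript length moved between libraries, by 7.49 times for Cpt1b, 4.18 times for Ppargc1a and 3.2 times for Acadm. Within a gene, levels are therefore given in CPM after TMM scaling, which corrects for library size and composition.

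**Figure D1:**
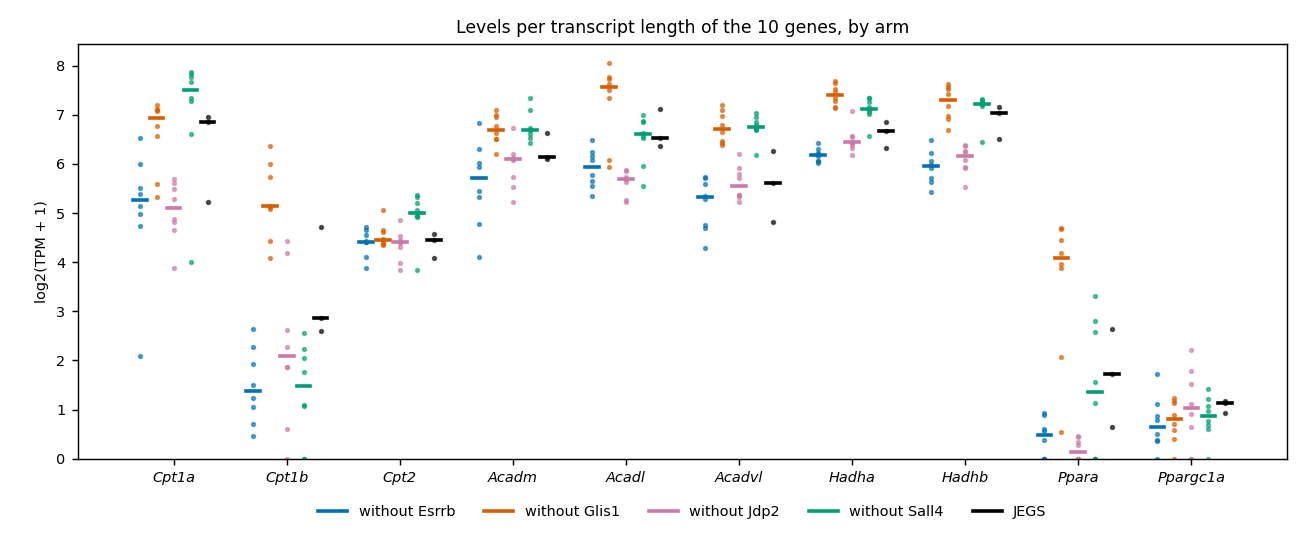
Level of each gene in log2(TPM + 1), with a point for each library and a bar at the median of each arm, arms side by side and JEGS last. The 6 genes at the top, from Hadha to Cpt1a, have medians of 50.5 to 100.3 TPM over all libraries, and Ppara and Ppargc1a have medians of 0.53 and 0.86 TPM; Ppara reaches 25.1 TPM without Glis1, 8.94 TPM without Sall4 and 5.2 TPM in JEGS.

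The mean of the remaining 3 leave-out arms, matched by day, served as the comparison for each arm, which asks how an arm that lacks a given factor differs from arms that lack another. Most of the oxidation genes were lower in the arms without Esrrb and without Jdp2 and higher in the arms without Glis1 and without Sall4, with Cpt1b, Cpt2 and Ppargc1a as exceptions in 1 or more arms. Without Esrrb, 9 of 10 members were lower, where 21.9% of the 18135 genes tested were lower and 42.8% passed in either direction; the median log2 fold change of the members was −1.12, against −0.01 for all genes. Without Glis1, 8 members were higher and none lower, where 20% of all genes were higher (36.3% passed), with a median of 0.97 against 0.01. Without Jdp2, 7 members were lower, where 9.13% of all genes were lower (23.5% passed), with a median of −0.67 against 0.01. Without Sall4, 8 members were higher, where 22.3% of all genes were higher (41.8% passed), and Cpt1b was lower, where 19.5% were lower, with a median of 0.76 against 0.00. Since they add up to 0 and draw on the same libraries, the 4 contrasts are not independent. All 10 members passed the filter on low counts in this fit.

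**Figure D2:**
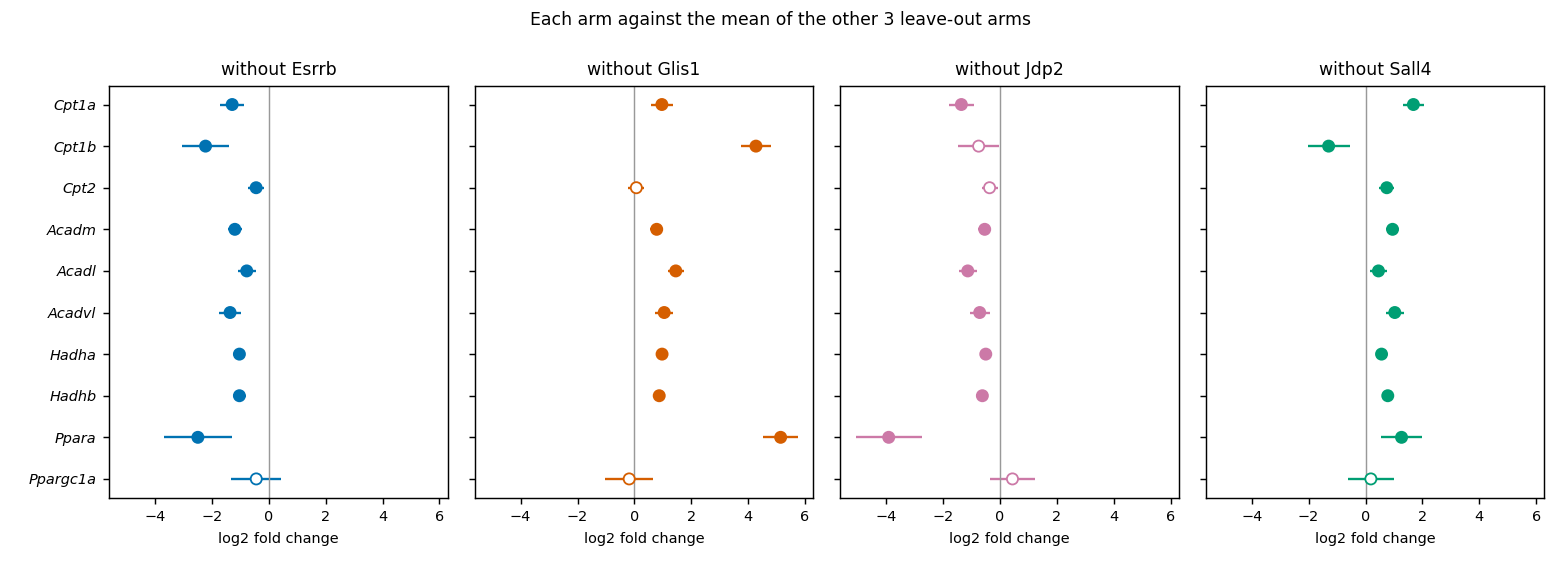
Log2 fold change of each gene (x axis) in each arm, with the mean of the remaining 3 leave-out arms as comparison, and 95% confidence intervals from the edgeR fit. Filled points passed at an adjusted p under 0.05: 9 lower without Esrrb, 8 higher without Glis1, 7 lower without Jdp2, and 8 higher and 1 lower without Sall4.

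Cpt1a encodes the outer membrane carnitine palmitoyltransferase of liver and most other tissues, the step at which entry of long chains is controlled. Its lowest, median and highest levels were 10.6, 101 and 242 CPM without Esrrb and 40.8, 92.6 and 147 CPM without Jdp2. They were 108, 382 and 467 CPM without Glis1 and 44.1, 598 and 762 CPM without Sall4. JEGS had 364, 330.2 and 102 CPM on days 2, 4 and 6. The lowest value of every leave-out arm was that of day 0, and the high arms overlapped the low ones only through their libraries of days 0 and 1. Against the other leave-out arms, the log2 fold change was −1.29 ± 0.22 (standard error, SE) without Esrrb (adjusted p = 2.53e-05) and −1.36 ± 0.22 without Jdp2 (adjusted p = 3.96e-05). It was 0.97 ± 0.19 without Glis1 (adjusted p = 0.000194) and 1.68 ± 0.19 without Sall4 (adjusted p = 3.44e-08). The arms without Sall4 and without Glis1 did not pass the test against each other, nor did the arms without Esrrb and without Jdp2, while the pairs across passed. With day 0 left out, Cpt1a was lower without Glis1 than without Sall4 (−0.72, adjusted p = 0.0064).

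Cpt1b, the muscle-type carnitine palmitoyltransferase, split the arms in another way. Without Glis1 it had 21.2, 60.3 and 74.8 CPM as lowest, median and highest. The other arms were near the floor, with 0.588, 1.15 and 6.33 CPM without Esrrb, 0, 4.74 and 8.27 CPM without Jdp2, and 0, 2.32 and 7.00 CPM without Sall4. JEGS had 19.3, 9.51 and 2.50 CPM on days 2, 4 and 6. All 8 libraries without Glis1 were above all 24 libraries of the other leave-out arms. The log2 fold change was 4.27 ± 0.27 without Glis1 (adjusted p = 4.92e-13). It was −2.23 ± 0.43 without Esrrb (adjusted p = 0.000107), −1.30 ± 0.38 without Sall4 (adjusted p = 0.00637) and −0.75 ± 0.36 without Jdp2, which did not pass (adjusted p = 0.145). The negative values set these arms against a mean that includes the arm without Glis1, and none of the 3 passed against another of them. Of the 3372 exon bases of Cpt1b, 2744 also belong to Gm44502 on the same strand, so its counts are uncertain. Gm44502 had at most 15.3 CPM in any library without Glis1. Where Cpt1b was listed at 0, Gm44502 had 1.12 and 10.9 CPM (days 0 and 2 without Sall4) and 4.02 CPM (day 0 without Jdp2). On day 5 without Sall4 it had 8.51 CPM, against 1.60 CPM for Cpt1b. Gm44502 was at 0 on days 1, 4, 6 and 7 without Sall4. The part of this overlap in the low Cpt1b values was not tested.

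Cpt2, the inner membrane enzyme that re-forms the acyl-CoA, moved least among the enzymes. It had 19.1, 24.5 and 35.7 CPM as lowest, median and highest without Esrrb and 19.9, 26.9 and 39.2 CPM without Jdp2. The arm without Glis1 had 28.1, 30.9 and 42.0 CPM and the arm without Sall4 had 15.1, 51.0 and 69.4 CPM. From day 1 on, every library without Sall4 was above every other leave-out library, with 47.3 CPM or more. Cpt2 was higher without Sall4, by 0.75 ± 0.13 on the log2 scale (adjusted p = 4.81e-05). It was lower without Esrrb by −0.45 ± 0.15 (adjusted p = 0.0159), a call lost when the library of day 2, 3 or 4 of that arm is left out (adjusted p of 0.0661, 0.0763 and 0.0645) and with limma on log2(TPM + 1), where it was −0.22 (adjusted p = 0.105). It did not pass without Glis1 (0.07 ± 0.14, adjusted p = 0.754) or without Jdp2 (−0.37 ± 0.14, adjusted p = 0.0648). That last value passed with the DESeq2 test (adjusted p = 0.0268), with its size factors (adjusted p = 0.0418) and over days 1 to 7 (adjusted p = 0.0165).

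**Figure D3:**
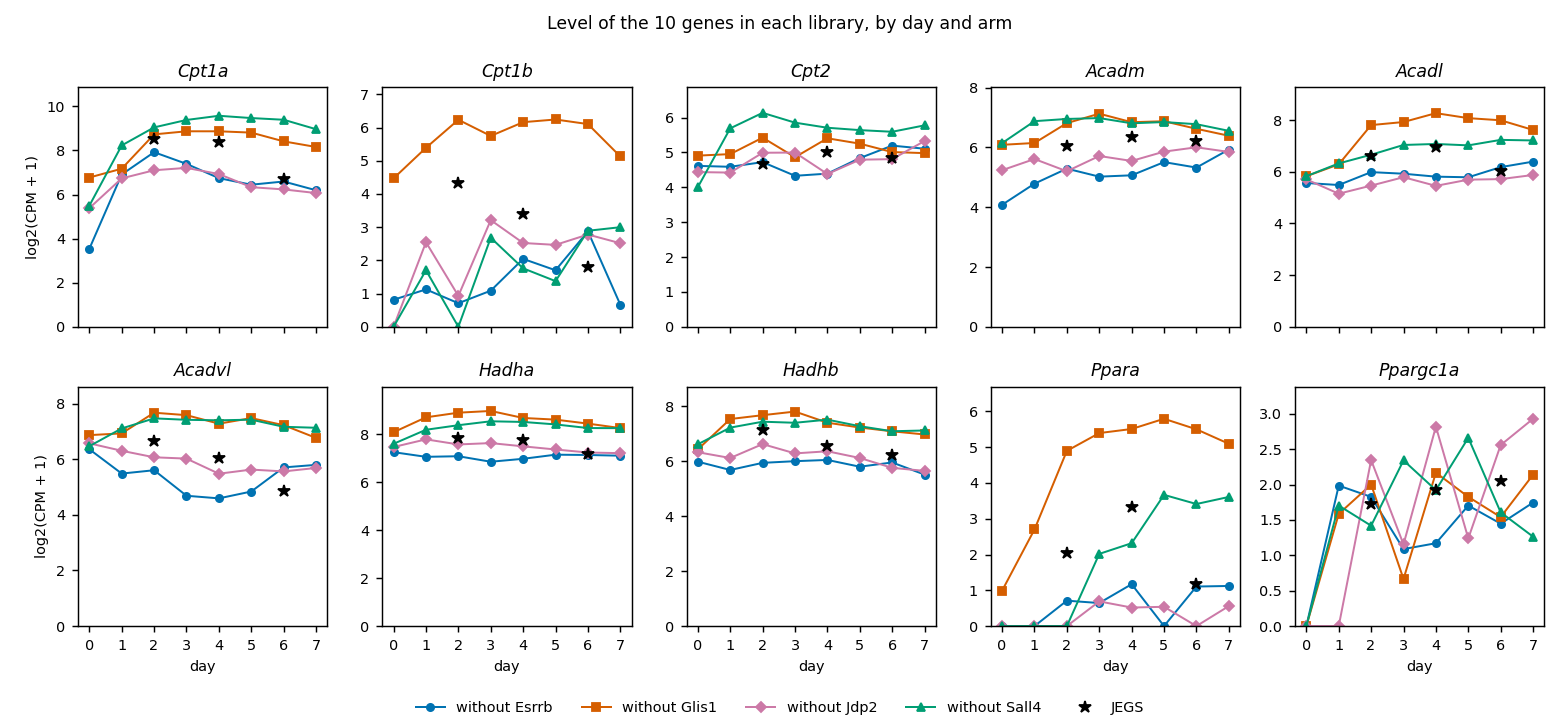
Level of each gene in each library as log2(CPM + 1) against day, with a line for each leave-out arm and stars for JEGS on days 2, 4 and 6; each panel has its own y axis from 0. Hadha without Esrrb stays between 115 and 152 CPM while the arm without Glis1 stays between 271 and 502 CPM, and Ppara climbs to 54.5 CPM without Glis1.

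Acadm, Acadl and Acadvl encode the medium-, long- and very-long-chain acyl-CoA dehydrogenases. Acadm had 15.9, 35.3 and 59.9 CPM as lowest, median and highest without Esrrb and 35.8, 49.7 and 63.2 CPM without Jdp2. It had 67.0, 104.6 and 139 CPM without Glis1 and 69.7, 113 and 125 CPM without Sall4. The arms without Glis1 and without Sall4 lay wholly above the arms without Esrrb and without Jdp2. JEGS had 64.9, 80.0 and 72.5 CPM on days 2, 4 and 6, around the low end of the high arms. Acadm was lower without Esrrb (log2 fold change −1.20 ± 0.13, adjusted p = 2.01e-08) and without Jdp2 (−0.54 ± 0.12, adjusted p = 0.00141). It was higher without Glis1 (0.78 ± 0.11, adjusted p = 1.81e-06) and without Sall4 (0.95 ± 0.11, adjusted p = 6.55e-08). On TPM, with limma and a pseudocount of 1, Acadm without Jdp2 did not pass (adjusted p = 0.16).

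Acadl had 43.8, 57.3 and 82.9 CPM without Esrrb and 34.5, 50.9 and 57.6 CPM without Jdp2, as lowest, median and highest. It had 55.7, 232 and 307 CPM without Glis1 and 55.8, 129 and 149 CPM without Sall4. On day 0 the 4 arms lay together at 46.3 to 55.8 CPM, and from day 2 on the arm without Glis1 had the highest level on every day. The log2 fold change was 1.46 ± 0.14 without Glis1 (adjusted p = 1.82e-09) and −1.13 ± 0.16 without Jdp2 (adjusted p = 5.85e-06). It was −0.78 ± 0.16 without Esrrb (adjusted p = 0.000225). Without Sall4 it was 0.45 ± 0.14 (adjusted p = 0.0123), and this call was lost with limma on TPM (adjusted p = 0.242) and without the day term (adjusted p = 0.0548).

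Acadvl had 23.1, 45.7 and 81.2 CPM without Esrrb and 43.6, 57.3 and 94.2 CPM without Jdp2. It had 108, 152 and 203 CPM without Glis1 and 87.6, 155 and 176 CPM without Sall4. Day 0 was the highest library of both low arms, and apart from day 0 no library of a low arm reached one of the high arms. Acadvl was lower without Esrrb (log2 fold change −1.36 ± 0.19, adjusted p = 1.47e-06) and without Jdp2 (−0.71 ± 0.18, adjusted p = 0.0039). It was higher without Glis1 (1.048 ± 0.16, adjusted p = 6.78e-06) and without Sall4 (1.03 ± 0.16, adjusted p = 8.51e-06). Of its 2686 exon bases, 1151 overlap Dvl2 on the opposite strand, and whether the counting used strand is not given, so its counts are uncertain. Between the arms without Esrrb and without Sall4, Dvl2 ran in the other direction, with means over the days of 78.1 and 26.4 CPM. Between the arms without Glis1 and without Jdp2 it hardly differed, with means of 46.3 and 48.2 CPM. Acadvl had means of 152.5 and 61.4 CPM in those arms. The part of Dvl2 reads in the Acadvl counts was not tested.

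Hadha and Hadhb gave the tightest differences. Hadha had 115, 136 and 152 CPM as lowest, median and highest without Esrrb and 147, 178 and 220.2 CPM without Jdp2. It had 271, 400.0 and 502 CPM without Glis1 and 194, 319 and 372 CPM without Sall4. On all 8 days the order was the same, with the arm without Glis1 on top, then the arm without Sall4, then without Jdp2, and the arm without Esrrb lowest. The log2 fold changes were −1.04 ± 0.10 without Esrrb (adjusted p = 4.25e-09), 0.97 ± 0.09 without Glis1 (adjusted p = 8.72e-10), −0.50 ± 0.10 without Jdp2 (adjusted p = 0.000339) and 0.56 ± 0.09 without Sall4 (adjusted p = 1.35e-05). All 6 pairs of arms passed for Hadha and for no other member, though without Glis1 against without Sall4 the call was lost with no filter (adjusted p = 0.0832) and with no day term (adjusted p = 0.0604).

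Hadhb had 44.7, 60.7 and 65.1 CPM without Esrrb, 49.1, 72.7 and 97.5 CPM without Jdp2, 85.2, 158 and 223 CPM without Glis1 and 97.1, 151 and 181 CPM without Sall4. The arm without Esrrb lay wholly below both high arms, and the arm without Jdp2 overlapped them only through their day 0. The log2 fold changes were −1.03 ± 0.11 without Esrrb (adjusted p = 2.11e-08), 0.87 ± 0.10 without Glis1 (adjusted p = 3.42e-08), −0.62 ± 0.11 without Jdp2 (adjusted p = 8.4e-05) and 0.78 ± 0.10 without Sall4 (adjusted p = 2.62e-07). Across the 32 leave-out libraries, Hadha and Hadhb had a Pearson correlation of 0.95 on log2(CPM + 1), the highest of the 45 pairs of members, whose median was 0.65. With each arm centred on its own mean it was 0.80. The libraries share arms and days, so these correlations describe them and are not tested.

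Ppara, the nuclear receptor of fatty acids, had the largest SD of log2(CPM + 1) of the members over the 32 leave-out libraries, 2.05, against 1.98 for Cpt1b and 1.44 for Cpt1a. Without Glis1 it had 0.985 CPM on day 0, 5.50 on day 1, 28.8 on day 2 and 41.0, 44.5, 54.5, 44.2 and 33.2 CPM on days 3 to 7. Without Sall4 it was listed at 0 on days 0, 1 and 2, and had 3.05, 3.98, 11.7, 9.64 and 11.2 CPM on days 3 to 7. Without Esrrb and without Jdp2 it never passed 1.25 CPM, with 8 and 5 counts in all over the 8 libraries of each arm. JEGS had 3.09, 8.96 and 1.25 CPM on days 2, 4 and 6. From day 1 on, the arm without Glis1 was above every other arm, while the other arms overlapped. Ppara was higher without Glis1 by 5.14 ± 0.31 on the log2 scale (adjusted p = 1.39e-13). It was lower without Jdp2 (−3.91 ± 0.59, adjusted p = 1.38e-05) and without Esrrb (−2.50 ± 0.61, adjusted p = 0.00145), folds that rest on those few counts. Without Sall4 the value was 1.27 ± 0.37 (adjusted p = 0.00682), and that call did not hold with limma on log2(TPM + 1) (0.03, adjusted p = 0.952) or with a day slope for each arm in the fit (0.33, adjusted p = 0.463).

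Ppargc1a encodes PGC-1α, the coactivator of mitochondrial genes. It was listed at 0 counts on day 0 in all 4 leave-out arms, where a floor of 3 counts is 1.44 to 2.18 CPM, and later values reached at most 15 counts in a library. Its highest level was 2.96 CPM without Esrrb, 3.49 CPM without Glis1, 6.61 CPM without Jdp2 and 5.32 CPM without Sall4, and JEGS had 2.32, 2.80 and 3.12 CPM on days 2, 4 and 6. The arms overlapped and no contrast passed, with log2 fold changes of −0.44 ± 0.45 without Esrrb, −0.18 ± 0.43 without Glis1, 0.44 ± 0.41 without Jdp2 and 0.19 ± 0.41 without Sall4. With standard errors of this size, a difference was not detectable at this depth unless it was large.

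Ordered by the mean CPM over the days of an arm, the arms without Glis1 and without Sall4 filled the top 2 places for 8 of the 10 members. The exceptions were Cpt1b, where the arm without Jdp2 came second, and Ppargc1a, whose order did not pass any test. The arm without Glis1 came first for 6 members and the arm without Sall4 for 3. At the bottom stood the arm without Esrrb for 7 members and the arm without Jdp2 for 3. Over the 6 pairs of arms, 39 of 60 member tests passed. The arm without Esrrb differed from the arm without Jdp2 in 2 members, Acadm (−0.49 ± 0.15, adjusted p = 0.0167) and Hadha (−0.40 ± 0.12, adjusted p = 0.0133), both lower without Esrrb, where 22% of all genes passed; Acadm lost this call with limma on TPM (adjusted p = 0.297) and Hadha without day 3 (adjusted p = 0.068). The arm without Glis1 was higher than the arm without Sall4 in Cpt1b (4.18 ± 0.39), Ppara (2.91 ± 0.36), Acadl (0.75 ± 0.18) and Hadha (0.31 ± 0.11, adjusted p = 0.0403), and lower in Cpt2 (−0.51 ± 0.17, adjusted p = 0.0209), 5 of 10 members where 32.1% of all genes passed. For Acadvl and Hadhb these 2 arms differed by 0.01 ± 0.20 and 0.07 ± 0.12, which did not pass. Each of the 4 pairs across the high and the low arms gave 8 members that passed, where 43.2% of all genes passed for the arms without Esrrb and without Glis1, 47% for those without Esrrb and without Sall4, and 35.2% for each pair with the arm without Jdp2. The sign of those calls was that of the high arm.

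Of the delivered factors, Esrrb followed the same split. It had a lowest, median and highest level of 4012, 6214 and 8352 CPM without Glis1 and 4992, 6708 and 7681 CPM without Sall4. It had 538, 1900.0 and 2643 CPM without Jdp2 and 7.05, 12.4 and 57.9 CPM without Esrrb. In JEGS, Esrrb stood at 2593, 1810.0 and 961 CPM on days 2, 4 and 6. The arms high in oxidation genes were thus the arms high in Esrrb, though its low level without Esrrb was set by the design. Among the leave-out arms, the medians of Jdp2 followed the split too, with 2708 CPM without Glis1, 1294 CPM without Sall4 and 829.4 CPM without Esrrb. In JEGS, Jdp2 had 896, 580.4 and 257.5 CPM on days 2, 4 and 6. The arm without Esrrb was above JEGS on each of these days, with 1357, 779 and 428 CPM of Jdp2. Its median was 17.2 CPM without Jdp2, again by design. The levels of Jdp2 overlapped between the arms without Sall4 (791 to 1394 CPM) and without Esrrb (428 to 1614 CPM). The part of Esrrb or Jdp2 dose in the member differences was not tested. Glis1 did not follow the split, with medians of 327 CPM without Sall4, 339 CPM without Esrrb and 242 CPM without Jdp2. Sall4 had medians of 4336 CPM without Glis1, 3084 CPM without Esrrb and 2246 CPM without Jdp2.

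Summed markers of cell types differed between arms, with overlap, and are given in CPM before scaling. The fibroblast markers did not follow the split, with medians of 4529 CPM without Esrrb, 3821 without Glis1, 8520 without Jdp2 and 9125 CPM without Sall4. In JEGS their median was 4234 CPM. The 6 macrophage markers summed to 15.5 to 30.4 CPM without Glis1 and 18.1 to 45.7 CPM without Sall4. They summed to 3.77 to 23.9 CPM without Esrrb and 4.00 to 26.0 CPM without Jdp2. Lyz2 (24.7 CPM), C1qa (6.59) and Adgre1 (2.45) reached their highest level of any arm without Sall4, and Csf1r (15.5) without Glis1. Ptprc (7.90 CPM) and Cd68 (8.36) were highest without Esrrb. The 9 striated muscle markers summed to 9.61 to 120.1 CPM without Glis1 and 2.53 to 184 CPM without Esrrb, so these arms overlapped. Without Glis1, Myh7 reached 59.1 CPM, Ckm 16.7, Myh6 8.61 and Actn2 5.85 CPM, each its highest of any arm, while Acta1 and Tnnt2 were highest without Esrrb and Myl1 without Sall4. Ckm, at 1.01 CPM or more, and Actn2, at 0.437 CPM or more, were above 0 in all 8 libraries of the arm in which Cpt1b was high. A floor of 3 counts is 0.831 to 2.37 CPM, so the lowest value of Actn2 is under it and that of Ckm is within that range. Actn2 was also above 0 in every library without Jdp2, at 0.466 CPM or more, where Cpt1b was near the floor. Myod1 was at 0 in every library without Glis1, without Esrrb and without Sall4. The 8 adipocyte markers summed to at most 13.1 CPM, without Glis1, and to at most 4.26 CPM in the other leave-out arms. Cidea reached 9.17 CPM, Plin1 5.38 and Cidec 1.75 CPM without Glis1, each its highest of any arm, and each had a lowest value of 0 there. Fabp4 and Ucp1 were highest without Jdp2, at 3.72 and 1.52 CPM, against 2.57 and 0.56 CPM without Glis1. Adipoq and Cfd were at 0 without Glis1, and Lep was at 0 in all 35 libraries. The hepatic and visceral endoderm markers summed to 0 to 38.9 CPM without Glis1 and 0 to 35.04 CPM without Sall4. The medians there were 16.1 and 22.9 CPM, below those of 47.6 CPM without Esrrb and 31.2 CPM without Jdp2. Apob (107 CPM) and Apoa1 (7.58) were highest without Esrrb, where Alb, Apoa4 and Hnf4a were at 0. Sox17 (80.8 CPM), Ttr (13.7), Hnf4a (6.61) and Afp (5.08) were highest without Jdp2. Apoa4 was highest without Glis1, at 14.6 CPM, and Alb was at most 0.687 CPM in any library. The 8 pluripotency markers had median sums of 5.77 CPM without Glis1, 35.6 without Sall4, 77.7 without Esrrb and 87.97 CPM without Jdp2. Their median sum in JEGS was 326 CPM. Without Sall4, Sox2 reached 48.2 CPM and each other marker at most 1.52 CPM. Without Esrrb, Lin28a reached 72.7, Sox2 42.6 and Pou5f1 24.2 CPM, and each other marker at most 4.88 CPM. The part of these cell types in the member differences was not tested.

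Against JEGS, on days 2, 4 and 6, the question is how the levels change when a factor is taken from the complete set. The 4 comparisons share the 3 JEGS libraries. Without Glis1, 7 members were higher, where 10% of the 16603 genes tested were higher (19.9% passed), with a median of 0.91 against 0.01 for all genes. Without Sall4, 6 members were higher, where 11.9% were higher (23.8% passed), with a median of 0.65 against 0.01. Without Esrrb, 2 members were lower, where 4.04% were lower (6.63% passed), with a median of −0.64 against −0.02. Without Jdp2, 1 member was lower, where 0.819% were lower (2.82% passed), with a median of −0.51 against −0.02.

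**Figure D4:**
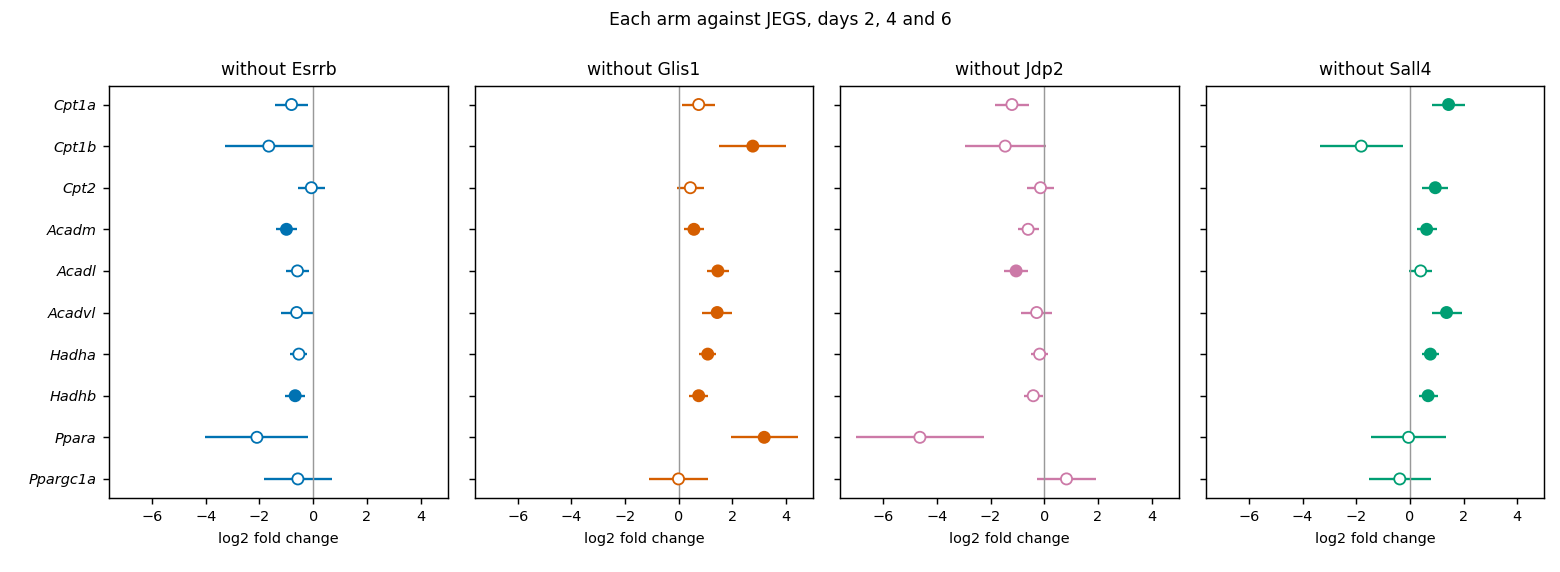
Log2 fold change of each gene (x axis) in each leave-out arm against JEGS over days 2, 4 and 6, with 95% confidence intervals. Filled points passed at an adjusted p under 0.05: 2 lower without Esrrb, 7 higher without Glis1, 1 lower without Jdp2 and 6 higher without Sall4.

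Among the dehydrogenases, Acadvl had 203, 154 and 149 CPM without Glis1 on days 2, 4 and 6, against 101, 65.5 and 28.1 CPM in JEGS. It had 176, 168 and 143 CPM without Sall4 on the same days. Both arms were above JEGS on each day, with log2 fold changes of 1.43 ± 0.29 without Glis1 (adjusted p = 0.00235) and 1.37 ± 0.29 without Sall4 (adjusted p = 0.0028). Acadl had 223, 307 and 253 CPM without Glis1, against 95.7, 123 and 64.4 CPM in JEGS (1.46 ± 0.22, adjusted p = 0.000233). In the arm without Jdp2 it had 43.1, 42.8 and 51.5 CPM, below JEGS on each day (−1.051 ± 0.22, adjusted p = 0.0176). Acadm had 38.1, 32.5 and 39.1 CPM without Esrrb, against 64.9, 80.0 and 72.5 CPM in JEGS (−0.996 ± 0.21, adjusted p = 0.00815). It was higher without Sall4 (0.62 ± 0.19, adjusted p = 0.0267) and, at the edge of the threshold, without Glis1 (0.57 ± 0.19, adjusted p = 0.0498), a call lost with the DESeq2 test (adjusted p = 0.0506).

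Hadha had 477, 410 and 348 CPM without Glis1, against 230.1, 213 and 142 CPM in JEGS (1.08 ± 0.16, adjusted p = 0.000234), and it was also higher without Sall4 (0.76 ± 0.16, adjusted p = 0.00278). Without Esrrb it had 135, 125 and 140 CPM, below JEGS on each day, and did not pass (−0.53 ± 0.16, adjusted p = 0.0618). Hadhb was higher without Glis1 (0.74 ± 0.18, adjusted p = 0.00808) and without Sall4 (0.68 ± 0.18, adjusted p = 0.0118), and lower without Esrrb (−0.67 ± 0.19, adjusted p = 0.0417). Within the JEGS arm, Hadhb had 138, 93.5 and 73.7 CPM on days 2, 4 and 6. Cpt1a, Cpt1b, Acadvl and Hadha likewise had their highest level on day 2 and their lowest on day 6, as the 4 delivered factors did. The remaining members did not: Acadm, Acadl, Cpt2 and Ppara were highest on day 4, and Ppargc1a was highest on day 6.

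In the carnitine shuttle, Cpt1a had 529, 762 and 672 CPM without Sall4 on days 2, 4 and 6, against 364, 330.2 and 102 CPM in JEGS (1.44 ± 0.31, adjusted p = 0.00367). The arm without Glis1 was also above JEGS on each day and did not pass (0.74 ± 0.31, adjusted p = 0.104). Cpt2 was higher without Sall4 (0.95 ± 0.25, adjusted p = 0.0111), and Cpt1b was higher without Glis1 (2.76 ± 0.63, adjusted p = 0.00584). Of the regulators, Ppara was higher without Glis1, with 28.8, 44.5 and 44.2 CPM against 3.09, 8.96 and 1.25 CPM in JEGS (3.18 ± 0.64, adjusted p = 0.00243). Without Sall4 the difference of Ppara from JEGS was −0.05 ± 0.71 and did not pass. Leaving out day 4 moved the counts to 0 without Esrrb, 4 without Glis1, 0 without Jdp2 and 2 without Sall4, and leaving out day 6 moved them to 7, 7, 4 and 7 in that order of arms.

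Over the days, the mean of the 4 leave-out slopes rose for 4 members, where 15.4% of 18135 genes rose and 31.2% passed in either direction. Ppara rose by 0.46 ± 0.14 log2 units per day (adjusted p = 0.0143), Cpt1b by 0.25 ± 0.08 (adjusted p = 0.0199), Acadl by 0.14 ± 0.03 (adjusted p = 0.000401) and Acadm by 0.09 ± 0.02 (adjusted p = 0.00462). The other 6 did not pass, among them Hadha at −0.01 ± 0.02 and Hadhb at −0.03 ± 0.02 per day. Day 0 carried much of this: without it, Ppara had 0.36 per day (adjusted p = 0.0571), Cpt1b 0.16 (adjusted p = 0.143) and Acadm 0.04 (adjusted p = 0.186). Also without day 0, Hadha fell by 0.05 (adjusted p = 0.0124) and Hadhb fell by 0.08 per day (adjusted p = 0.00212). Within single arms, the slope passed for Acadm without Esrrb (0.18 ± 0.05, adjusted p = 0.00704), for Acadl (0.25 ± 0.07, adjusted p = 0.0144) and Ppara (0.45 ± 0.14, adjusted p = 0.0456) without Glis1, and for Acadl (0.18 ± 0.06, adjusted p = 0.047) and Ppara (0.83 ± 0.18, adjusted p = 0.00346) without Sall4. These calls amount to 1, 2, 0 and 2 members in the arms without Esrrb, Glis1, Jdp2 and Sall4, where 19.2%, 7.87%, 9.68% and 9.3% of all genes passed.

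By the edgeR test no member's slope differed between an arm and the mean of the other 3, where 6.64%, 3.55%, 0.127% and 1.84% of all genes differed in the arms without Esrrb, Glis1, Jdp2 and Sall4. At an unadjusted p under 0.05 the counts were 1, 0, 0 and 0, and the DESeq2 and limma fits also gave 0 in each arm. The difference in slope of Acadm without Esrrb was 0.13 ± 0.06 per day (adjusted p = 0.168).

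Between day 1 and day 0, the first day in induction medium, 1 of the 9 members tested passed, where 11.9% of 14447 genes did. Cpt1a had 120, 143, 106 and 299 CPM on day 1 in the arms without Esrrb, Glis1, Jdp2 and Sall4, against 10.6, 108, 40.8 and 44.1 CPM on day 0. It was higher on day 1 in each arm, by 1.89 ± 0.40 on the log2 scale (adjusted p = 0.01). With limma on log2(TPM + 1) the adjusted p was 0.05 with a filter and 0.156 with none, neither under the threshold, and without the arm term it was 0.135. Ppara was too low to be tested here, and Ppargc1a had 5, 4, 0 and 4 counts on day 1 in the same order of arms, against 0 counts in each on day 0.

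Genes that act beside the members were read from lists chosen by function, and their counts stand beside the shares of all 18135 genes. Of all genes, 20.9% were higher and 21.9% lower without Esrrb, 20% and 16.3% without Glis1, 14.4% and 9.13% without Jdp2, and 22.3% and 19.5% without Sall4. Of 15 other genes of mitochondrial β-oxidation, 12 were higher without Glis1 and 0 lower, with a median of 0.57. They included Acad11 (0.87 ± 0.13), the enoyl-CoA isomerase Eci2 (0.87 ± 0.12), the thiolase Acaa2 (0.81 ± 0.12) and Etfb, which takes electrons from the dehydrogenases (0.78 ± 0.13). Without Esrrb, 7 were lower and 0 higher, with a median of −0.25, among them Etfdh (−0.84 ± 0.11), Acad11 (−0.84 ± 0.15), Eci1 (−0.82 ± 0.14) and Etfa (−0.51 ± 0.11). Without Jdp2, 6 were lower and 1 higher (Acads, 0.39 ± 0.09), the lowest being Acad10 (−0.90 ± 0.22) and Acaa2 (−0.85 ± 0.13). Without Sall4 the list was mixed, with 3 higher and 2 lower of 15, near or below the shares of all genes, and a median of 0.00; Hadh, which acts on shorter chains, was lower (−0.77 ± 0.14) while Eci1 was higher (0.72 ± 0.12).

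**Figure D5:**
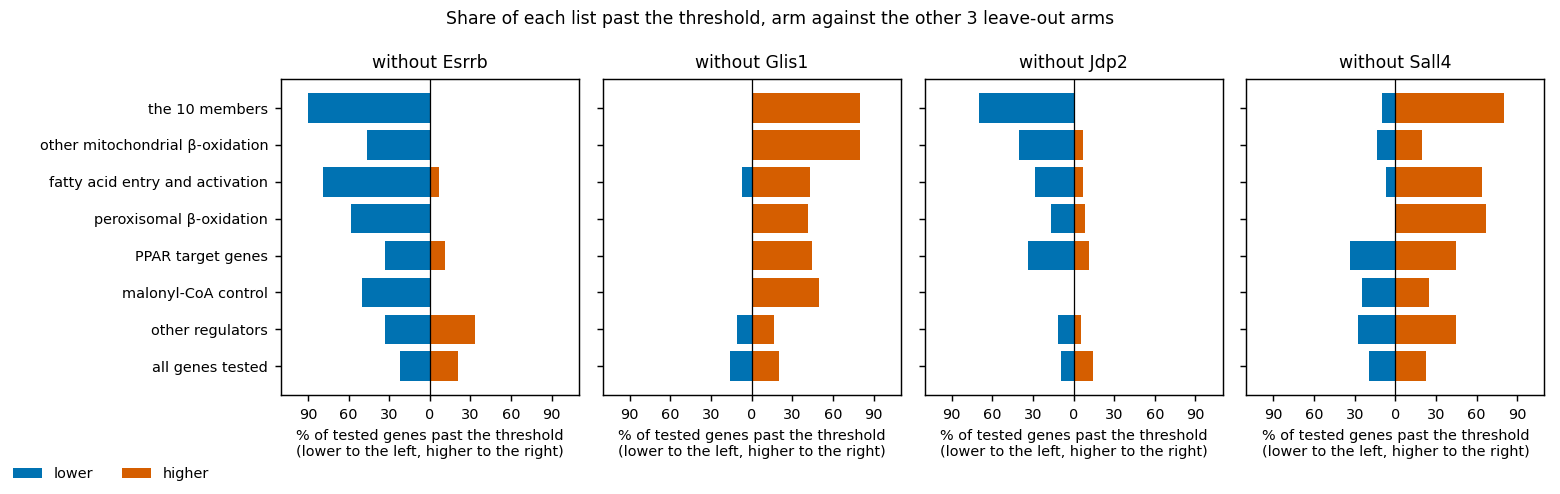
Percent of the tested genes of each list that passed in each arm against the other 3 leave-out arms, lower to the left (blue) and higher to the right (orange), with all 18135 genes tested in the bottom row. The 15 other mitochondrial genes have 12 higher without Glis1 and 3 higher without Sall4.

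Of 14 genes of fatty acid entry and activation, 11 were lower and 1 higher without Esrrb, with a median of −0.59, where 21.9% of all genes were lower. Fabp3, a fatty acid carrier of heart and muscle, was lower by −4.97 ± 0.49, the acyl-CoA synthetase Acsl1 by −1.64 ± 0.15, the transporter Slc27a1 by −1.34 ± 0.22 and Acsl4 by −0.95 ± 0.12. Without Sall4, 9 were higher and 1 lower, led by the uptake receptor Cd36 (3.26 ± 0.34) and Fabp3 (2.77 ± 0.31). Without Glis1, 6 were higher and 1 lower, led by Acsl1 (2.56 ± 0.12), Slc27a1 (2.25 ± 0.17) and Fabp3 (1.48 ± 0.33). Without Jdp2, 4 were lower and 1 higher, where 9.13% and 14.4% of all genes were, with Cd36 at −2.85 ± 0.55. The carnitine-acylcarnitine carrier Slc25a20, which works between Cpt1 and Cpt2, was higher without Glis1 (0.72 ± 0.13) and without Sall4 (0.40 ± 0.13), and lower without Esrrb (−0.56 ± 0.14) and without Jdp2 (−0.55 ± 0.14); it was named here after its values were seen.

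Of 12 peroxisomal β-oxidation genes, 7 were lower without Esrrb, 5 higher without Glis1 and 8 higher without Sall4, with none in the opposite direction, where 21.9%, 20% and 22.3% of all genes passed in those directions. The acyl-CoA oxidase Acox3 had −1.76 ± 0.16 without Esrrb and 1.23 ± 0.12 without Sall4, and Crot, which makes carnitine esters of medium chains, had 0.76 ± 0.13 without Glis1. Without Jdp2, 2 were lower and 1 higher, Acox3 (0.36 ± 0.13). Of 14 PPAR target genes 9 could be tested. The pyruvate dehydrogenase kinase Pdk4 had −4.40 ± 0.24 without Esrrb, 2.13 ± 0.16 without Glis1, −0.75 ± 0.19 without Jdp2 and 3.02 ± 0.16 without Sall4, and Vnn1 had −4.77 ± 0.28, 2.74 ± 0.18, −1.30 ± 0.22 and 3.33 ± 0.17 in the same arms. The list as a whole was mixed, with 3 lower and 1 higher without Esrrb, 4 higher without Glis1, 3 lower and 1 higher without Jdp2, and 4 higher and 3 lower without Sall4.

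Among the 4 genes that make or remove malonyl-CoA, the inhibitor of Cpt1 enzymes, Acacb had −3.10 ± 0.30 without Esrrb, 1.495 ± 0.22 without Glis1 and 2.17 ± 0.21 without Sall4, and no gene passed without Jdp2. Mlycd, which removes malonyl-CoA, had −0.86 ± 0.19 without Esrrb and 0.47 ± 0.17 without Glis1, so that genes of opposite roles had the same sign in these arms. On day 1, 3 of these 4 genes were higher than on day 0, where 5.93% of all genes were: Acacb (2.34 ± 0.40), Fasn (1.42 ± 0.17) and Acaca (0.91 ± 0.20). Of 18 other regulators, 6 were higher and 6 lower without Esrrb, 3 and 2 without Glis1, 1 and 2 without Jdp2, and 8 and 5 without Sall4. Nothing is read from these counts, some of which lie near the shares of all genes given for each arm. Esrrg, an estrogen-related receptor, had 2.93 ± 0.37 without Glis1 and −2.82 ± 0.55 without Sall4. The RXR partner of PPARα, Rxra, had −2.14 ± 0.20 without Glis1 and 1.25 ± 0.16 without Esrrb, opposite in sign to Ppara in both arms. The AMP kinase subunit Prkaa2 had −2.11 ± 0.29 without Esrrb, 0.88 ± 0.22 without Jdp2 and 1.09 ± 0.22 without Sall4.

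For the 4 members with the widest spread, genes of the most similar pattern were found over the 32 leave-out libraries by the Pearson correlation of log2(CPM + 1) among 11098 genes with a mean of 5 CPM or more, predicted genes left out. For Ppara these were Gpx6 (0.95), Pitpnc1 (0.94) and Slc25a34 (0.93), and for Cpt1b they were Acsl1 (0.92), Dhh (0.91) and Nova2 (0.91). For Cpt1a they included Coq9 (0.94) and mt-Nd2 (0.92), and for Acadl they were Kcng4 (0.95), Lrrn1 (0.93) and Pdk2 (0.93). Among the members, Ppara was most like Acadl, with a correlation of 0.94 over all libraries and 0.88 with each arm centred. The lowest correlation was that of Acadvl with Ppargc1a, −0.02. All these points share arms, days and depth.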

How the data were processed

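Reads were processed with bcl2fastq, Bowtie2 and RSEM on mm10, per the submitters' processing notes, which give no versions; the annotation release and the strand setting are not given in the sources used here. Per the file headers, the authors deposited for each of the 35 libraries 1 RSEM gene table with expected counts (estimated counts, not all whole) and TPM. The sample names gave arm and day, against a treatment label that lists the 4 factors and 1 duration for all samples. Of 54752 identifiers, 54723 matched a symbol, and 102 that shared a symbol kept the identifier.

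Expected counts were rounded and tested with edgeR 4.0.16 (R 4.3.3): genes at 1 CPM or more in 3 libraries, TMM scaling, and the two-sided quasi-likelihood F test with Benjamini-Hochberg adjustment over all genes of a contrast (threshold 0.05). Arm contrasts and pairs used a day factor over 32 libraries, JEGS contrasts the 15 libraries of days 2, 4 and 6, slopes a linear day term for each arm, and day 1 against day 0 the 8 libraries of those days with arm as a factor. Errors are the log2 fold change divided by the root of its F value, and SE near a fold of 0 is imprecise. Fits that leave out a library or day kept the genes and trended dispersion of the full fit. The scripts were tested on simulated data. Alternatives were DESeq2 1.42.0 (its Wald test, or its size factors in edgeR), an unfiltered fit, limma 3.58.1 on log2(TPM + 1) and log2(TPM + 0.1), other day terms and day ranges, and all 35 libraries; thinning to 1200000 counts and days 1 to 7 were added after seeing the data. The members, the gene lists and the rule for naming genes were chosen with earlier results of these data known; of each other list, up to 4 genes with the largest change past the threshold may be named. Promoter windows are RefSeq's for GRCm38.p6, gene positions GENCODE M21. Depth limits the low genes. Floors of 3 counts cover counting error only; SEs and 95% intervals come from the edgeR fit and include scatter between libraries. Python 3.11.15, numpy 2.4.6, pandas 2.3.3 and matplotlib 3.10.9 were used. Values of some listed genes are not reported here.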

Additional observations from a re-analysis of the deposited data

Results flagged for a closer look

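A group here was the 8 libraries of an arm for 1 gene, and 40 groups were examined (10 genes in 4 leave-out arms). In 4 of them, the gap of a library to its neighbour was above Dixon's 95% limit for the group's range. For repeats of 1 condition chance gives about 1 in 20, but these libraries are different days, so that rate does not apply. The flags for Cpt2, Acadvl and Hadha come from the same library, that of day 0 without Sall4. Cpt2 without Sall4 had 15.1 CPM on day 0, against 47.3 to 69.4 CPM on days 1 to 7. Acadvl in that arm had 87.6 CPM on day 0, against 137 to 176 CPM on the other days. Hadha had 194 CPM on day 0 there, against 291 to 372 CPM. Cpt1b without Esrrb had 6.33 CPM on day 6, from 11 counts, against 0.588 to 3.13 CPM on the other days.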

How the results depend on the processing

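The counts of members called in the 4 leave-out contrasts were 8 to 9 without Esrrb, 8 in every fit without Glis1, 6 to 8 without Jdp2 and 7 to 9 without Sall4 over 12 alternatives, and 37 to 42 of 60 over the pairs of arms. Leaving out each library or day in turn gave 8 to 9, 8 to 8, 7 to 8 and 9 to 9 in these arms, and 35 to 42 over the pairs. Where a member's value passed in the main fit or in the alternative set against it, the sign was the same in both. Sign changes of values that passed in neither fit were not counted.

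Counts against JEGS depended on the setting. Without Esrrb, 2 members became 5 with no filter, and 1 with limma on log2(TPM + 1), with or without a filter, on log2(TPM + 0.1), or with no replicate block; leave-one-out gave 0 to 7. Without Glis1, 7 became 3 with limma on log2(TPM + 0.1) and 4 with limma and no filter (leave-one-out 4 to 7). Without Jdp2, 1 became 3 with the DESeq2 test or its size factors, 4 with no filter and 2 with either filtered limma fit (leave-one-out 0 to 4). Without Sall4, 6 became 3 with limma and no filter (leave-one-out 2 to 7). The mean slope went to 7 members on log2(day + 1) (leave-one-out 3 to 6), the slope difference without Glis1 to 1 on that scale, and day 1 against day 0 to 2 with no filter and 0 with the 3 limma fits or no arm term (leave-one-out 1 to 1). The cause was not tested. Single libraries moved 2 of these counts by over 1.5 times. Without Esrrb against JEGS, leaving out JEGS day 2, 4 or 6 gave 1, 0 or 5, and leaving out day 2 or 4 of the arms without Esrrb or without Sall4, or day 4 of those without Glis1 or without Jdp2, gave 1. Without Jdp2 against JEGS, leaving out JEGS day 2, 4 or 6 gave 0, 0 or 3, and day 2, 4 or 6 of the arm without Jdp2 gave 0, 0 or 2. There, day 2, 4 or 6 of the arm without Esrrb or day 2 of that without Glis1 gave 2, and day 2 or 6 of that without Sall4 gave 3. With no filter, the median of all genes without Esrrb was −0.16. The arms are paired by day, and the day factor is the replicate block; with no replicate block the counts were 9, 8, 7 and 7 in the arms without Esrrb, Glis1, Jdp2 and Sall4, 37 over the pairs, and 1, 6, 1 and 5 against JEGS. The low counts of Ppara, Ppargc1a and Cpt1b limit what can be seen of them.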
